A study of Homo sapiens with 15 samples.

Results

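The comparison covers the step at which VCaP-CT cells became able to grow in enzalutamide (ENZ), an antiandrogen. It sets the 3 libraries titled CT-ER against the 3 titled CT, chosen by title alone, which makes 6 of the 15 bulk RNA-seq libraries of the series. VCaP, an established line of human prostate cancer cells, carries a TMPRSS2-ERG fusion. Both sublines descend from VCaP-T, which was kept in hormone-stripped serum with 10 nM testosterone for 7 months. Per the study's methods, VCaP-CT was then held for 10 months at 0.1 nM testosterone, whereas the sample labels list 10 nM for this stage in both sublines. VCaP-CT-ER, named VCaP-CT-ET in the methods, was made from VCaP-CT by culture with 10 µM ENZ until growth resumed. Each subline was derived 1 time as far as described, so ENZ, the time in culture and the derivation cannot be told apart, and the p values measure only the spread between 3 libraries of each subline. A second ENZ step, which shares no library with it, was set beside it: VCaP-CT-BR had been made resistant to bicalutamide, an older antiandrogen, and VCaP-CT-BR-ER came from it under ENZ, with 3 libraries each. The label of VCaP-CT-BR itself mentions ENZ after bicalutamide.

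Testosterone and dihydrotestosterone switch on genes of the prostate epithelium that carry androgen response elements, short DNA sequences close to the gene. Among the products are secreted proteins such as the kallikrein PSA, which KLK3 encodes. ENZ blocks this response, and prostate cancer cells that grow under it are known to do so in several ways, among them the use of other nuclear receptors and loss of the luminal programme.

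The libraries held between 33665716 and 46935279 counted fragments. Mitochondrial genes took 7.18% to 7.60% of the counts in VCaP-CT and 9.17% to 9.56% in VCaP-CT-ER. The lowest correlation of log2 CPM (counts per library scaled to a common size) was 0.9913 within a subline, and the highest between the 2 sublines was 0.9502, across genes, which are not independent replicates. The luminal marker EPCAM had 224 and 239 CPM on average in VCaP-CT and VCaP-CT-ER, and ERG, the marker of the fusion, 415 and 276 CPM. Of the 4 immune markers 3 had no count in any of the 6 libraries, and the 3 basal markers summed to at most 2.84 CPM. In bulk RNA, fewer cells with a transcript and less of it in each cell cannot be told apart.

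Of 19621 genes tested, 5811 (29.6%) were higher in VCaP-CT-ER than in VCaP-CT and 6130 (31.2%) were lower at an adjusted p of 0.05 (edgeR's quasi-likelihood test, Benjamini-Hochberg adjustment). At least 2-fold changes were fewer. They covered 1562 genes (7.96%) that rose and 1880 (9.58%) that fell, and the 2 sublines' libraries did not overlap in 3347 of these 3442 genes. The libraries also did not overlap in 12420 genes of all tested (63.3%). Changes of at least 16-fold were called for 199 genes that rose and 142 that fell. The median log2 fold change of all genes tested was -0.019, so the groups below are read against a value close to 0. Counts of list members called are likewise read against the 29.6% higher and 31.2% lower of all genes tested. A list near these shares shows nothing particular to its members.

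**Figure D1:**
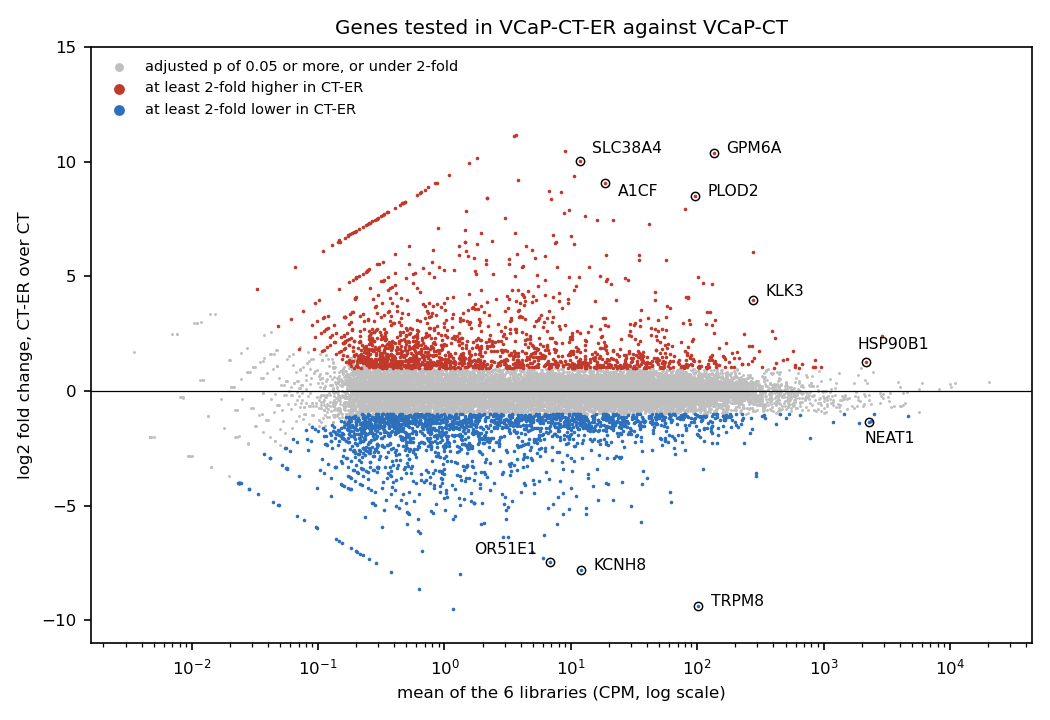
Log2 fold change of VCaP-CT-ER over VCaP-CT (vertical axis) against the mean of the 6 libraries in CPM (horizontal axis, log scale) for the genes tested; colours mark the 1562 genes at least 2-fold higher and the 1880 at least 2-fold lower. GPM6A and PLOD2 lie at the top and TRPM8 at the bottom at levels near 100 CPM.

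Androgen-induced genes did not move as 1 group. All 32 genes on a list of androgen-induced genes were tested, and 15 rose (46.9%), 13 fell (40.6%) and 4 were not called. Of all genes tested 29.6% rose and 31.2% fell. The median log2 fold change of the list was 0.11. KLK3 gave the largest rise among them, from 32.6, 34.5 and 32.3 CPM to 527, 535 and 499 CPM (log2 fold change 3.97, SE 0.05, edgeR adjusted p = 1.95e-22). The groups did not overlap, and VCaP-T had 3560 CPM on average, so that the mean of KLK3 in VCaP-CT-ER was lower than in that subline. FKBP5, a co-chaperone of steroid receptors, had 122, 122 and 125 CPM in VCaP-CT and 246, 247 and 258 CPM in VCaP-CT-ER (log2 fold change 1.03). NDRG1, SLC45A3, ELL2 and PLPP1 rose as well, with log2 fold changes of 0.99, 0.64, 0.96 and 1.39.

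KLK2, the neighbour and paralog of KLK3, behaved otherwise. It had 8059, 8235 and 7590 CPM in VCaP-CT and 8444, 8986 and 8175 CPM in VCaP-CT-ER, and the groups overlapped. Its log2 fold change was 0.10 (SE 0.05, edgeR adjusted p = 0.0786), and it passed the threshold in 4 of 13 alternatives. TMPRSS2, a serine protease whose promoter drives the fusion, fell from 134, 137 and 138 CPM to 88.8, 89.3 and 87.3 CPM without overlap (log2 fold change -0.63, SE 0.05, edgeR adjusted p = 8.25e-10). ERG, the fusion's other partner, fell by nearly the same amount, with 415 CPM in VCaP-CT and 276 CPM in VCaP-CT-ER (log2 fold change -0.59). ACP3, the prostatic acid phosphatase, fell from 3373 to 1658 CPM (log2 fold change -1.02). ALDH1A3 fell from 13.3 to 2.13 CPM, and STEAP4, a metalloreductase, from 1.75 to 0.0982 CPM (log2 fold changes -2.64 and -4.15).

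The 250 bases before the start of KLK3 and of KLK2 are shown because the promoters of these paralogs share the element while the transcripts differed in their change. They are RefSeq sequences of GRCh38.p14, plus strand, at chr19:50854665-50854914 and chr19:50873189-50873438. Capitals mark a match to GNACANNNNGTNC, a loose form of the androgen response element searched on both strands.
KLK3: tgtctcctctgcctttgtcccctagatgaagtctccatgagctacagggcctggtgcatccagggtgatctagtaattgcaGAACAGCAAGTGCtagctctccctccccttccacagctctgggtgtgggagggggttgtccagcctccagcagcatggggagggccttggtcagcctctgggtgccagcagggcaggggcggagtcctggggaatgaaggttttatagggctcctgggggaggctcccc
KLK2: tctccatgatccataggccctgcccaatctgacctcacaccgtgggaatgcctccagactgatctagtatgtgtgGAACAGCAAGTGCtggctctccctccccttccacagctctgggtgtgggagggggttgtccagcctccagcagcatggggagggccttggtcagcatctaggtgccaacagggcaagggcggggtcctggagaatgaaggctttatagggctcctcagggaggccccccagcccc

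The matched 13 bases were the same in both promoters, and the 2 sequences set without gaps at this match were identical at 185 of 244 positions (75.8%). The form was present in 1.81% of 35116 promoters and in 3 of the 23 androgen-induced genes with a promoter in the table. The third was CENPN, a centromere protein, which went from 30.3 to 58.9 CPM. A match is a description of the sequence and says nothing of binding in these cells.

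**Figure D2:**
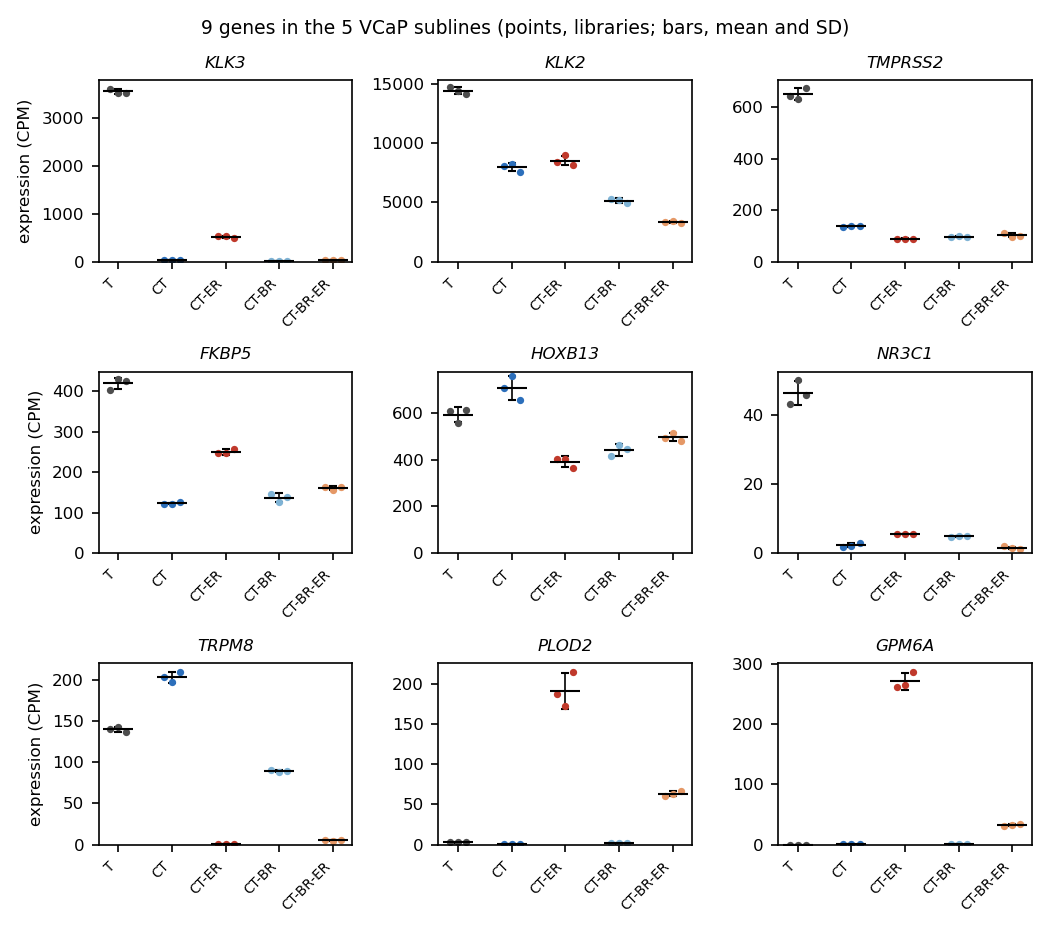
Expression in CPM (vertical axes, from 0) of 9 genes in the 5 VCaP sublines; points are libraries, horizontal marks the mean and bars the SD of 3 libraries. KLK3 regains a part of its level in VCaP-T, KLK2 overlaps between VCaP-CT and VCaP-CT-ER, and TRPM8, PLOD2 and GPM6A separate the 2 sublines completely.

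Genes that androgen is known to repress were split too. Of 11 tested, 6 rose (54.5%, against 29.6% of all genes) and 5 fell (45.5%, against 31.2%). The latter were 3 in a fit of the 6 libraries alone. UGT2B15 and UGT2B17, which glucuronidate androgens, rose from 0.344 to 3.79 CPM and from 0.213 to 1.53 CPM. The related UGT2B28 fell from 0.368 to 0.0539 CPM, and reads that fit several of these near-identical genes were not counted. OPRK1, the kappa opioid receptor, fell from 17.7 to 2.35 CPM. Of the 15 tested genes of androgen synthesis and inactivation 6 rose and 3 fell. AKR1C3, which makes testosterone from androstenedione, had 3.32, 2.99 and 3.47 CPM in VCaP-CT and 16.8, 15.9 and 19.0 CPM in VCaP-CT-ER (log2 fold change 2.40, SE 0.11, edgeR adjusted p = 5.64e-14). AKR1C1 and AKR1C2 of the same family rose as well, with log2 fold changes of 2.20 and 1.14, and HSD17B6 fell with -1.56. Reads that fit several AKR1C genes were not counted. CYP17A1 did not pass the filter on low counts, nor did 8 others of the 24 genes listed.

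Among 20 tested nuclear receptors, 8 rose and 5 fell. NR3C1, the glucocorticoid receptor, had 1.84, 2.05 and 2.88 CPM in VCaP-CT and 5.40, 5.60 and 5.49 CPM in VCaP-CT-ER (log2 fold change 1.28, SE 0.14, edgeR adjusted p = 6.35e-08). The groups did not overlap, but the level stayed far below the 46.2 CPM of VCaP-T. Larger changes came from HNF4G, a receptor known from liver and gut, which went from 0.241 to 20.8 CPM (log2 fold change 6.42), and from PPARG, a receptor of fat cells, which went from 0.181 to 8.17 CPM (5.45). PGR, the progesterone receptor, fell from 5.50 to 0.243 CPM (-4.49). ESRRA, a regulator of mitochondrial genes, fell from 217 to 45.3 CPM (-2.26). In VCaP-T, HNF4G and PPARG both had 10.4 CPM on average, PGR 0.197 CPM and ESRRA 192 CPM.

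GPM6A, a neuronal membrane proteolipid, was among the genes with the largest rises (chromosome 4 of GRCh38, 175632934 to 176002664). It had 0.242, 0.142 and 0.224 CPM in VCaP-CT and 262, 265 and 288 CPM in VCaP-CT-ER (log2 fold change 10.37, SE 0.12, edgeR adjusted p = 1.25e-21). PLOD2, which hydroxylates lysines of collagen (chromosome 3, 146069440 to 146163653), had 0.604, 0.541 and 0.447 CPM in VCaP-CT and 187, 172 and 215 CPM in VCaP-CT-ER (log2 fold change 8.49, SE 0.13, edgeR adjusted p = 2.31e-21). Neither gene overlapped between the sublines, and VCaP-T had no GPM6A count and 2.89 CPM of PLOD2 on average. The family of PLOD2 was split. Of 22 collagen hydroxylases and lysyl oxidases tested 8 rose and 11 fell, with a median log2 fold change of -0.30; P3H2 rose from 8.33 to 50.7 CPM, while PLOD1 went from 71.3 to 47.4 CPM and LOX from 5.47 to 3.58 CPM.

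A1CF, a cofactor of RNA editing of the apolipoprotein B transcript known from liver and gut, had 0.0302, 0.114 and 0.0559 CPM in VCaP-CT and 34.6, 36.3 and 41.0 CPM in VCaP-CT-ER (log2 fold change 9.05, SE 0.17, edgeR adjusted p = 2.68e-20). The groups did not overlap, and VCaP-T had 2.65 CPM on average. A few further liver and gut genes, picked after their values were seen, also rose. APOH, an apolipoprotein, went from 0.644 to 27.2 CPM, the pepsinogen gene PGC from 0.0585 to 7.12 CPM and the trypsin inhibitor SPINK1 from 5.52 to 87.1 CPM. HNF4A had no count in the 6 libraries.

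Of 17 tested genes of drug efflux and metabolism 10 rose (58.8%, against 29.6% of all genes) and 4 fell (23.5%, against 31.2%). The median log2 fold change was 0.75. Without CT-ER replicate 1 or CT replicate 1, 2 fell. With at least 10 counts in every library, 5 of those still tested were higher. CYP2C8, a cytochrome P450 that clears many drugs and ENZ among them, had no count in VCaP-CT and 0.249, 0.376 and 0.348 CPM in VCaP-CT-ER, which is at least 11.2-fold higher against a floor of 3 counts over the 3 libraries of VCaP-CT. UGT1A1, a glucuronidating enzyme that shares exons with its UGT1A neighbours, was at least 7.37-fold higher by the same floor. In VCaP-T, CYP2C8 and UGT1A1 had 0.670 and 0.567 CPM on average, above the 0.324 and 0.218 CPM of VCaP-CT-ER. ABCB1, the drug efflux pump, did not pass the filter on low counts.

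Other genes near 0 in VCaP-CT rose with few counts behind their lower level. SLC38A4, an amino acid transporter, had 2 counts in all in VCaP-CT and 23.9, 21.4 and 25 CPM in VCaP-CT-ER, a ratio of 1215 (exact 95% counting interval 336 to 10038). BEX1, a neuronal adaptor on chromosome X, had 3 counts in VCaP-CT and 21.1, 21.2 and 21.7 CPM in VCaP-CT-ER (ratio 739, exact 95% interval 253 to 3584). DLGAP1, a postsynaptic scaffold, had 3 counts in VCaP-CT and 13.7, 13.1 and 13.3 CPM in VCaP-CT-ER (ratio 464, exact 95% interval 158 to 2252). Levels in VCaP-T were unlike each other, as SLC38A4 had 0.413 CPM, BEX1 8.83 CPM and DLGAP1 43.9 CPM. ATP2B2, a calcium pump, went from 0.0382 to 13.9 CPM. The pseudogenes CYP4F29P and OR4K12P, both on chromosome 21, had 1 count each in VCaP-CT and 18.1 and 7.63 CPM on average in VCaP-CT-ER. Both belong to families of near-identical copies, and reads that fit several copies were not counted.

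TRPM8, a cold-sensing calcium channel of the prostate that androgen induces, fell most (chromosome 2, 233917398 to 234019522). It had 203, 197 and 210 CPM in VCaP-CT and 0.207, 0.376 and 0.323 CPM in VCaP-CT-ER (log2 fold change -9.39, SE 0.10, edgeR adjusted p = 1.22e-23). The groups were far apart, and VCaP-T held 140 CPM on average. KCNH8, a potassium channel, fell from 24.0, 25.3 and 22.4 CPM to 0.0621, 0.167 and 0.0745 CPM (log2 fold change -7.82). The olfactory-type receptors OR51E1 and OR51E2 (PSGR), which lie side by side on chromosome 11 and are known from prostate tissue, fell together, OR51E1 from 13.5 to 0.0721 CPM and OR51E2 from 11.9 to 0.0747 CPM (log2 fold changes -7.47 and -7.28). In VCaP-T they stood at 0.648 and 0.901 CPM on average.

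The remaining genes with the largest falls had other roles. FMOD, a proteoglycan that binds collagen, went from 9.81 to 0.0695 CPM, and CST2, a salivary cystatin, from 15.4 to 0.272 CPM, against 10365 CPM in VCaP-T. TMEM30B, a subunit of lipid flippases, had 1 count in all 3 VCaP-CT-ER libraries and 2.69, 2.90 and 2.38 CPM in VCaP-CT (ratio 362, exact 95% counting interval 64.4 to 14347). FRRS1L, SMIM32 and the non-coding RNA ST8SIA6-AS1 fell from 5.72, 12.2 and 6.31 CPM to 0.0652, 0.160 and 0.0735 CPM on average. Exons of TRPM8, A1CF, DLGAP1, TMEM30B and OR51E2 overlap those of a neighbour, and reads were counted without regard to strand.

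**Figure D3:**
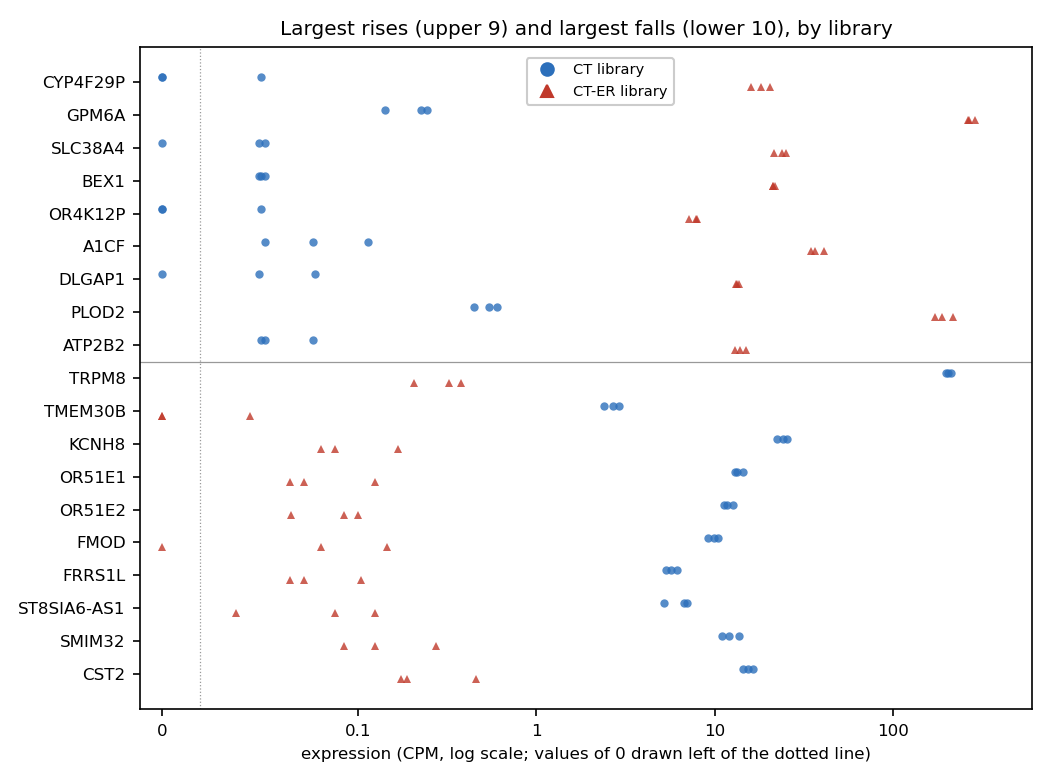
Expression in CPM (horizontal axis, log scale, values of 0 drawn to the left of the dotted line) of 9 of the 10 genes with the largest rise and the 10 with the largest fall, chosen for these changes; circles are VCaP-CT and triangles VCaP-CT-ER libraries. No gene shows overlap between the sublines, which the choice required, and GPM6A, PLOD2 and TRPM8 reach above 100 CPM in their higher subline.

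Of 21 prostate lineage factors tested 12 fell (57.1%, against 31.2% of all genes) and 7 rose (33.3%, against 29.6%). The median log2 fold change was -0.34. HOXB13, a homeobox factor of the prostate, had 709, 760 and 659 CPM in VCaP-CT and 406, 405 and 364 CPM in VCaP-CT-ER (log2 fold change -0.86, SE 0.06, edgeR adjusted p = 7.43e-11). SPDEF, an ETS factor of luminal cells, fell from 700 to 312 CPM (-1.17). FOXA1, a pioneer factor of luminal cells, had 693, 707 and 637 CPM in VCaP-CT and 642, 634 and 643 CPM in VCaP-CT-ER, with overlap (log2 fold change -0.09, SE 0.05, edgeR adjusted p = 0.108). GATA2 did not pass either, with 503 and 534 CPM. TOX, a high-mobility-group factor, rose from 2.60 to 10.3 CPM and SOX2, a stem cell factor, from 0.395 to 1.09 CPM.

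Epithelial identity genes held or changed gene by gene. Of 22 luminal markers 9 rose (40.9%, against 29.6% of all genes), 6 fell (27.3%, against 31.2%) and 7 were not called. The keratin KRT19 rose from 13.4 to 72.5 CPM and AGR2, a secretory disulfide isomerase, from 267 to 888 CPM (log2 fold changes 2.43 and 1.74), while the secreted peptide TFF3 fell from 25.7 to 0.618 CPM (-5.36). EPCAM and CDH1 had 224 and 328 CPM in VCaP-CT and 239 and 308 CPM in VCaP-CT-ER and were not called. Of 12 basal markers tested 4 rose (33.3%), all 4 at least 2-fold, and 7 fell (58.3%), 4 of them at least 2-fold. The largest called change was a rise, that of the keratin KRT15 (log2 fold change 5.41). ITGA6, the laminin-binding integrin, fell from 112 to 20.2 CPM and CD44 from 31.0 to 6.75 CPM, and TP63 and KRT5 did not pass the filter. Of 10 mesenchymal genes tested 6 fell and 2 rose, FBN1 from 12.7 to 1.57 CPM and THBS1 from 71.5 to 400 CPM, and VIM, ZEB1 and CDH2 did not pass the filter.

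LUM, a proteoglycan best known from fibroblasts, had 6.70, 4.87 and 7.16 CPM in VCaP-CT and 189, 183 and 215 CPM in VCaP-CT-ER (log2 fold change 4.97, SE 0.12, edgeR adjusted p = 1.20e-18). Other fibroblast markers were low, with COL1A1 at 1.01 and 0.431 CPM and DCN at 0.0481 and 0.417 CPM, and COL1A2 and COL3A1 did not pass the filter. Over the list of 22 fibroblast, endothelial and immune markers 9 were tested and 7 had no count in the 6 libraries. Of those tested 3 rose (33.3%, against 29.6% of all genes) and 5 fell (55.6%, against 31.2%). The list summed to 34.1 to 37.7 CPM in VCaP-CT and 210 to 251 CPM in VCaP-CT-ER, most of it LUM in the latter. The endothelial genes VWF and PECAM1 fell from 6.03 to 0.121 CPM and from 2.57 to 0.0775 CPM.

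Neuroendocrine and neuronal genes did not move together. Of 27 tested, 12 rose (44.4%, against 29.6% of all genes) and 10 fell (37.0%, against 31.2%), with a median log2 fold change of 0.29. Where at least 10 counts in every library were required, 6 of those still tested were higher. Besides GPM6A and BEX1, the granin SCG2 rose from 0.20 to 12.3 CPM, the adhesion molecule NCAM1 from 1.90 to 29.1 CPM and the prohormone-processing enzyme CPE from 15 to 79.0 CPM (log2 fold changes 5.91, 3.93 and 2.39). INSM1, a transcription factor that defines neuroendocrine cells, fell from 20.1, 21.8 and 18.7 CPM to 4.76, 4.43 and 4.69 CPM (log2 fold change -2.13, SE 0.08, edgeR adjusted p = 5.51e-15). DLL3 and SCGN, both known from neuroendocrine tumours, fell from 12.7 to 5.64 CPM and from 40.2 to 11.9 CPM. CHGA had no count in the 6 libraries, and NEUROD1 did not pass the filter. SYP had 6.19, 6.75 and 5.39 CPM in VCaP-CT and 4.95, 5.68 and 4.57 CPM in VCaP-CT-ER, and its groups overlapped (log2 fold change -0.27, SE 0.11, edgeR adjusted p = 0.0412). ENO2 had 67.3 and 60.0 CPM (log2 fold change -0.17, edgeR adjusted p = 0.011). The calls of SYP and ENO2 were lost in 7 and 5 of 13 alternatives, and without CT replicate 2 their adjusted p were 0.221 and 0.0836.

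**Figure D4:**
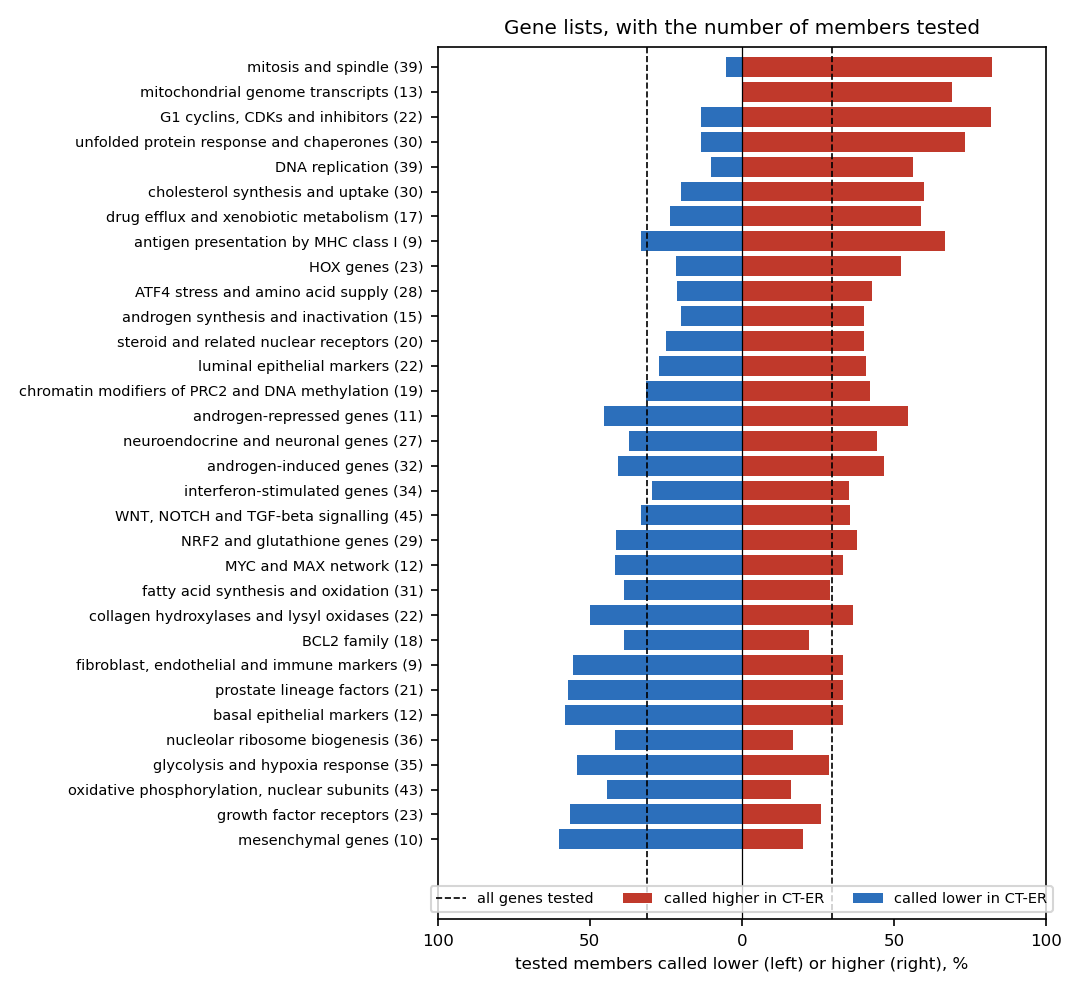
Percent of the tested members of each gene list called higher (right, red) or lower (left, blue) in VCaP-CT-ER; the number tested stands in parentheses and dashed lines give the same shares of all genes tested. Mitosis, G1 and chaperone genes are the 3 lists with the largest share higher, at 82.1%, 81.8% and 73.3%, against 29.6% of all genes.

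Of 39 genes of mitosis tested 32 rose (82.1%, against 29.6% of all genes), 2 fell and 5 were not called, with a median log2 fold change of 0.55, and only 1 reached a 2-fold change. TOP2A, which untangles DNA before division, had 294, 260 and 292 CPM in VCaP-CT and 719, 712 and 779 CPM in VCaP-CT-ER (log2 fold change 1.38, SE 0.07, edgeR adjusted p = 1.43e-13). CDK1, the kinase that drives entry into mitosis, rose from 101 to 188 CPM, and UBE2C and FOXM1 had log2 fold changes of 0.92 and 0.87. MKI67, a proliferation marker, had 180, 182 and 193 CPM in VCaP-CT and 203, 202 and 218 CPM in VCaP-CT-ER (log2 fold change 0.17, SE 0.07, edgeR adjusted p = 0.0581), and it passed in 7 of 13 alternatives. The kinesin KIF20A fell from 215 to 136 CPM. In DNA replication 22 of 39 rose (56.4%) and 4 fell (10.3%, against 31.2% of all genes), with a median of 0.22. Without CT-ER replicate 3, CT replicate 1 or CT replicate 2, 2 fell. RRM2 rose the most, from 22.0 to 47.5 CPM, while the helicase subunit MCM3 fell from 181 to 107 CPM.

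G1 genes rose in 18 of 22 cases (81.8%, against 29.6% of all genes), 8 of them at least 2-fold, and fell in 3 (median log2 fold change 0.57). The list mixes drivers and brakes of the cycle, and both rose. CCND1, the D cyclin of prostate cells, had 555, 572 and 537 CPM in VCaP-CT and 1194, 1147 and 1158 CPM in VCaP-CT-ER (log2 fold change 1.07, SE 0.04, edgeR adjusted p = 2.51e-15). The inhibitor CDKN1A (p21) had 35.3, 35.4 and 33.4 CPM in VCaP-CT and 85.9, 87.3 and 86.1 CPM in VCaP-CT-ER (log2 fold change 1.32). CDKN2B, CDKN2D and CDKN2C, which inhibit CDK4 and CDK6, rose with log2 fold changes of 3.21, 1.73 and 1.64. MDM2, which degrades p53, rose from 47.8 to 103 CPM, and E2F3 fell from 160 to 80.5 CPM.

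Of 30 genes of the unfolded protein response tested 22 rose (73.3%, against 29.6% of all genes) and 4 fell (13.3%, against 31.2%). The other 4 were not called, and the median log2 fold change was 0.56. HSP90B1 (GRP94), the Hsp90 of this compartment, had 1343, 1149 and 1301 CPM in VCaP-CT and 2968, 3008 and 3239 CPM in VCaP-CT-ER (log2 fold change 1.28, SE 0.06, edgeR adjusted p = 1.41e-13). HSPA5 (BiP) had 693, 617 and 650 CPM in VCaP-CT and 1195, 1151 and 1267 CPM in VCaP-CT-ER (log2 fold change 0.88, SE 0.05, edgeR adjusted p = 2.05e-12). The secreted chaperone-like factor MANF, the oxidase ERO1A and the co-chaperone DNAJB11 rose with log2 fold changes of 1.37, 1.25 and 1.10. PDIA2, a disulfide isomerase of this compartment, fell from 19.4 to 7.82 CPM (log2 fold change -1.31). The sensors ATF6 and ERN1 had 51.7 and 27.9 CPM in VCaP-CT and 49.8 and 26.1 CPM in VCaP-CT-ER and were not called. CREB3L1, a transcription factor of the secretory pathway, fell from 56.7, 62.4 and 54.2 CPM to 1.59, 1.73 and 2.06 CPM (log2 fold change -5.01, SE 0.10, edgeR adjusted p = 3.76e-20). The cytosolic HSP90AB1, which folds steroid receptors, also went down, from 3381 to 1354 CPM (log2 fold change -1.32), 1 of the 5 largest losses in CPM.

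The upstream 250 bases of HSP90B1 and HSPA5 are printed because these members rose together and hold the response element of this pathway. They are RefSeq sequences of GRCh38.p14 at chr12:103930160-103930409 on the plus strand and chr9:125241344-125241593 on the minus strand. Capitals mark matches to the endoplasmic reticulum stress element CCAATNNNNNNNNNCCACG, searched on both strands.
HSP90B1: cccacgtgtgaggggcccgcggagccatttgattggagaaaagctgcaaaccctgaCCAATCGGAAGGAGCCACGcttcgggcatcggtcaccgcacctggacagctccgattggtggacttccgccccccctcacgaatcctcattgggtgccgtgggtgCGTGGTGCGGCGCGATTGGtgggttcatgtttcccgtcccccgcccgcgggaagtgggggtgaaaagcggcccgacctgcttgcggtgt
HSPA5: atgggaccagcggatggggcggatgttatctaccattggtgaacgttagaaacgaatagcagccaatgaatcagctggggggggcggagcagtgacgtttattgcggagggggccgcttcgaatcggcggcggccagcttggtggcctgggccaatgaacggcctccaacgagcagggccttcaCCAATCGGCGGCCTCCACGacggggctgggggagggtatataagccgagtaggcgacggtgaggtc

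HSP90B1 held 2 matches and HSPA5 1. The full element was present in 26 of 35116 promoters (0.074%) and in 8 of the 28 listed genes with a promoter in the table. Of these 8, 7 rose and XBP1 was not called, with 728 and 713 CPM, where 73.3% of all tested members of the list rose. In the mitosis list the CCAAT box, also a part of this element, was present in 26 of 33 genes with a promoter and TTTGAA, a form of the cell cycle homology region, in 19 of 33, against 32% and 13.3% of all promoters. Of the tested genes with TTTGAA 15 rose, 1 fell and 2 were not called, where 82.1% of all tested members of the list rose. The counts of genes with a motif that rose are thus no result about the motif.

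The 5 largest losses in CPM included EEF2, the elongation factor that moves the ribosome, with 7508, 8353 and 6694 CPM in VCaP-CT and 4221, 4087 and 3574 CPM in VCaP-CT-ER (log2 fold change -0.92, SE 0.08, edgeR adjusted p = 5.80e-09). RACK1, a scaffold of the small ribosomal subunit on chromosome 5, had 6203, 6316 and 6358 CPM in VCaP-CT and 2955, 3129 and 2913 CPM in VCaP-CT-ER (log2 fold change -1.07, SE 0.04, edgeR adjusted p = 1.10e-14). The other losses were those of the pseudogene EEF1A1P5, whose reads cannot be fully separated from EEF1A1, of HSP90AB1 and of the nuclear non-coding RNA NEAT1, which fell from 3261 to 1289 CPM. A list of 87 genes of ribosomal proteins and their paralogs, drawn up after values were seen, held 82 tested genes. Of these 64 fell (78.0%, against 31.2% of all genes), 5 rose (6.10%, against 29.6%) and 13 were not called. Only 1 fell at least 2-fold (median log2 fold change -0.33). In nucleolar ribosome biogenesis 15 of 36 genes fell (41.7%), 6 rose (16.7%) and 15 were not called (median -0.09). MYC, a driver of ribosome production, had 545, 603 and 510 CPM in VCaP-CT and 350, 339 and 315 CPM in VCaP-CT-ER (log2 fold change -0.72, SE 0.06, edgeR adjusted p = 1.12e-09). In its network 4 of 12 genes rose (33.3%) and 5 fell (41.7%), among the latter MYCL, from 13.0 to 4.48 CPM, and the antagonist MXI1, from 54.9 to 22.3 CPM.

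Of the 13 genes of the mitochondrial genome 9 rose (69.2%, against 29.6% of all genes) and 4 were not called (median log2 fold change 0.18). Among them MT-CO1 had 17393, 17725 and 17666 CPM in VCaP-CT and 22855, 23580 and 23686 CPM in VCaP-CT-ER (log2 fold change 0.41). These genes make up the higher mitochondrial share of the VCaP-CT-ER libraries, and the part of RNA quality in it was not tested. Of 43 nuclear subunits of oxidative phosphorylation 19 fell (44.2%, against 31.2% of all genes), 7 rose and 17 were not called (median -0.14), NDUFA2 and NDUFV1 by log2 fold changes of -0.92 and -0.81. In glycolysis and hypoxia response 19 of 35 fell (54.3%) and 10 rose (28.6%), with a median of -0.22. LDHA fell from 411 to 277 CPM and VEGFA, the vascular growth factor, from 85.5 to 42.6 CPM, whereas EPAS1, the hypoxia factor HIF-2 alpha, rose from 12.6 to 58.0 CPM.

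In lipid metabolism, 18 of 30 genes of cholesterol synthesis and uptake rose and 6 fell (60.0% higher, median log2 fold change 0.24). MSMO1 and HMGCS1, enzymes of sterol synthesis, rose from 137 to 314 CPM and from 142 to 272 CPM, while the cholesterol exporter ABCG1 fell from 41.4 to 9.07 CPM. Fatty acid genes were split, with 9 of 31 higher (29.0%) and 12 lower (38.7%). DGAT2, which makes triglycerides, rose with a log2 fold change of 2.39, and FASN was not called at 1108 and 1186 CPM. NRF2 and glutathione genes were split as well, with 11 of 29 higher (37.9%) and 12 lower (41.4%). NQO1, a standard NRF2 target, fell from 2.51 to 0.0982 CPM, and the secreted peroxidase GPX3 rose from 64.8 to 274 CPM. Of 28 genes of the ATF4 response 12 rose (42.9%) and 6 fell (21.4%). VLDLR, a lipoprotein receptor, rose the most, from 10.7 to 102 CPM, and ATF4 itself had 644 and 643 CPM.

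Signalling genes showed single large changes. Of 45 genes of WNT, NOTCH and TGF-beta signalling 16 rose (35.6%) and 15 fell (33.3%), near the 29.6% and 31.2% of all genes. The median log2 fold change was 0.00. ID1, an inhibitor of helix-loop-helix factors that bone morphogenetic proteins induce, had 2.63, 1.91 and 1.93 CPM in VCaP-CT and 127, 101 and 106 CPM in VCaP-CT-ER (log2 fold change 5.70, SE 0.22, edgeR adjusted p = 3.78e-15). ID3, SMAD6 and ID2, known targets of the same signal, had log2 fold changes of 4.10, 1.20 and 1.03, and the ligand BMP2 went from 3.62 to 15.9 CPM, while the ligand BMP7 and the receptor BMPR1B fell from 76.3 to 40.3 CPM and from 44.2 to 19.9 CPM. WNT5A and the NOTCH ligand JAG1 fell from 6.80 to 0.631 CPM and from 90.9 to 20.3 CPM. Of 23 growth factor receptors 6 rose and 13 fell (56.5%, against 31.2% of all genes). RET fell from 4.61 to 0.289 CPM and EGFR from 32.5 to 10.8 CPM, and IGF1R and ERBB3 rose from 267 to 688 CPM and from 54.9 to 124 CPM.

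The remaining lists were mixed. Of 34 interferon-stimulated genes 12 rose (35.3%) and 10 fell (29.4%), against 29.6% and 31.2% of all genes. PARP14 rose from 4.84 to 34.2 CPM and IFITM3 fell from 1.98 to 0.0861 CPM. Of 9 tested genes of antigen presentation 6 rose (66.7%) and 3 fell (33.3%). B2M, the light chain of MHC class I, had 18.1, 16.8 and 17.9 CPM in VCaP-CT and 87.7, 87.0 and 98.0 CPM in VCaP-CT-ER (log2 fold change 2.37). HLA-B and HLA-C did not pass the filter. Of 18 BCL2 family genes 4 rose (22.2%) and 7 fell (38.9%), with the p53 target PMAIP1 from 3.49 to 11.4 CPM and BAD from 126 to 64.2 CPM. Of 23 HOX genes 12 rose (52.2%) and 5 fell (21.7%). HOXC8 rose from 0.411 to 2.85 CPM and HOXC6 from 23.5 to 57.2 CPM. Of 19 genes of PRC2 and DNA methylation 8 rose (42.1%) and 6 fell (31.6%), the methyltransferase EZH2 from 31.0 to 53.2 CPM and JARID2 from 23.1 to 9.71 CPM.

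The changes were spread unevenly over the genome. On chromosome 5, 503 of 914 genes tested fell (55.0%) and 131 rose, with a median log2 fold change of -0.38. On chromosome 21, 135 of 238 fell (56.7%) and 28 rose (median -0.45), and on chromosome 14, 338 of 637 rose (53.1%) and 89 fell (median 0.34). The medians of the single VCaP-CT-ER libraries against the VCaP-CT mean lay between -0.39 and -0.32 on chromosome 5, between -0.45 and -0.39 on chromosome 21 and between 0.33 and 0.36 on chromosome 14. In the second ENZ step the medians were -0.29, 0.10 and -0.04 on these chromosomes.

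**Figure D5:**
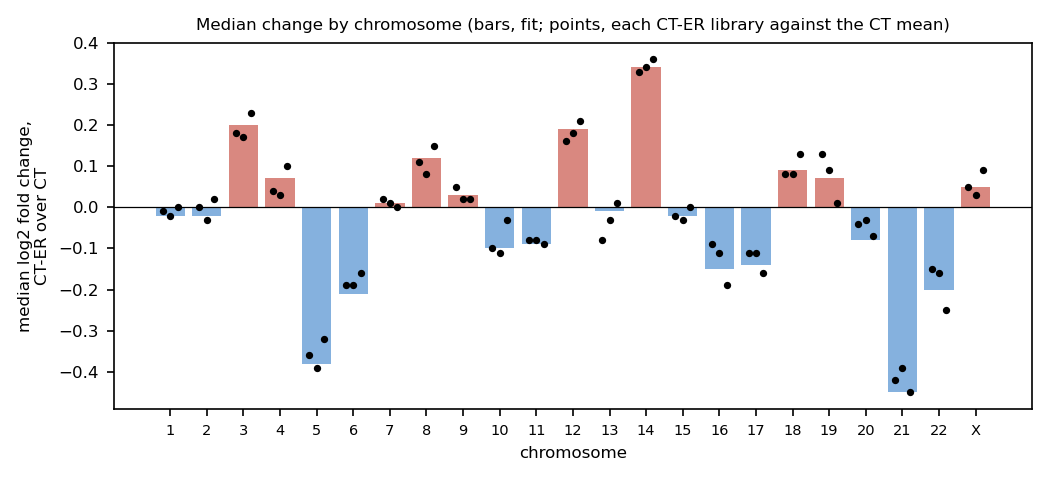
Median log2 fold change of VCaP-CT-ER over VCaP-CT (vertical axis) of the genes tested on each chromosome (horizontal axis); bars are the fit and points the 3 VCaP-CT-ER libraries, each against the VCaP-CT mean. Chromosomes 5 and 21 lie lowest, at -0.38 and -0.45, and chromosome 14 highest, at 0.34.

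Runs of 25 neighbouring genes tested were also read, and the 3 with the highest and the 3 with the lowest median were described because they were the extremes. The lowest lay on chromosome 5 from PCDHA13 to PCDHGA3 (140882208 to 141512981), where 23 of 25 genes fell, 20 of them at least 2-fold (median log2 fold change -2.15). It holds clustered protocadherins, adhesion molecules best known from neurons, which share exons or near-identical sequence. PCDHB5 had 29.3, 29.0 and 25.7 CPM in VCaP-CT and 6.15, 6.68 and 6.14 CPM in VCaP-CT-ER (log2 fold change -2.15), and TAF7, an unrelated gene between them, went from 115 to 80.8 CPM. A run that overlaps it went from PCDHGA5 to SPRY4-AS1 (141364232 to 142672001), where 22 of 25 fell and 2 rose (median -1.27, and -0.71 where genes needed 10 counts in each library), DIAPH1 from 177 to 103 CPM and DELE1 from 160 to 74.4 CPM. The third was on chromosome 21 from 41141493 to 42651244, with 18 lower and 1 higher (median -1.35, and -0.64 with that filter). It contains TMPRSS2 and BACE2, a protease, which fell from 183, 186 and 187 CPM to 40.1, 41.2 and 40.3 CPM (log2 fold change -2.19).

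Of the highest runs, that on chromosome 2 from RAB6C to FAR2P3 (129979664 to 130718831) had 21 of 25 genes higher, 17 of them at least 2-fold (median log2 fold change 2.97). It is rich in near-identical copies and pseudogenes, 16 of its 25 genes share exon positions with another gene, and its median was 0.26 where genes needed at least 10 counts in every library. Its well-expressed genes changed little, with PTPN18 at 71.3 and 104 CPM and MZT2B at 25.7 and 25.6 CPM. On chromosome 11 from ZDHHC5 to FAM111B (57667747 to 59127410) 19 of 25 rose (median 1.35, and 0.60 with that filter). FAM111B, a protease, rose from 36.3 to 123 CPM there, and TMX2, a membrane protein of the endoplasmic reticulum, from 110 to 172 CPM. CTNND1, the gene of this run with the most counts, was not called at 481 and 509 CPM, and ZDHHC5 had 104 and 129 CPM. On chromosome 8 from PAICSP4 to GATA4 (4787332 to 11760002) 20 rose and 2 fell (median 0.96, and 0.63 with that filter), with AGPAT5, an enzyme of phospholipid synthesis, at 21.3 and 52.7 CPM.

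The step was last set beside the second ENZ step, taken by VCaP-CT-BR. The difference between the steps passed an adjusted p of 0.05 for 49.7% of all genes tested (edgeR). In the second step itself 21.2% of all genes tested were higher and 21.7% lower. Of the 9 genes described among the largest rises 8 were also called higher in that step. BEX1 and DLGAP1 reached only 0.103 and 0.108 CPM in VCaP-CT-BR-ER, near the floor of 3 counts, against 21.3 and 13.4 CPM in VCaP-CT-ER. A1CF had 0.274 CPM in VCaP-CT-BR and 0.155 CPM in VCaP-CT-BR-ER and was not called. Of the 10 with the largest fall 5 were lower there too and 3 were higher. GPM6A went from 0.994 to 32.4 CPM, PLOD2 from 1.49 to 63.3 CPM and TRPM8 from 89.1 to 5.42 CPM, in each case a smaller change than in the step from VCaP-CT. KLK3 rose from 14.1 to 40.0 CPM (1.5).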

How the data were processed

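RNA of VCaP sublines was sequenced in bulk, 3 libraries for each of 5 sublines, and groups were taken from the titles. The deposited files hold counts of read pairs for each gene, made by the authors. Per the file headers the authors used featureCounts 1.6.2 on exons of GENCODE 28 (GRCh38), summed by gene, paired, with no strand option, so that reads from overlapping genes on opposite strands cannot be told apart and reads that fit several places were not counted. STAR 2.5.4b is named in the submitters' processing notes.

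Counts were tested as deposited with edgeR 4.0.16 (quasi-likelihood F test, TMM scaling, two-sided) in R 4.3.3. All 15 libraries entered 1 fit, since they then share the estimate of spread, and contrasts were CT-ER against CT and the difference between this step and CT-BR-ER against CT-BR. Genes were filtered by edgeR's filterByExpr at 10 counts, and p values were adjusted over 19621 genes by Benjamini and Hochberg. Per-library values are CPM after scaling. Totals of 33665716 to 46935279 counts put the floor of 3 counts at 0.064 to 0.089 CPM in 1 library, and intervals and floors cover counting error only. Of 58381 genes listed, 57799 were given symbols from GENCODE 44, by gene ID, and these held 99.84% of the counts. Genes were named if they had the 10 largest rises or falls with no overlap between the sublines and a mean log2 CPM of at least 1, the 5 largest gains or losses of CPM, a place on a short list of androgen response, lineage, neuroendocrine and growth genes named in any case, one of the 4 largest changes of its gene list, or most counts in a described run. Further list members, shown for their known roles, were picked after their values were seen. Some genes that the rule or the lists hold are not reported here. The members and lists were chosen with earlier results of these data known. RefSeq promoters of GRCh38.p14 were searched as letters on both strands. In counts simulated for 19070 genes with this comparison's library sizes, 81 of 100 genes changed 1.5-fold and 93 of 100 changed 2-fold were recovered, with 11 false calls. The simulation gave every gene the same spread (a coefficient of variation of 0.061) and changed only 200 genes. Its rates therefore need not hold for the real counts.

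Alternatives were RLE and upper quartile scaling, DESeq2 1.42.0, no filter, at least 10 counts in every library, a block on the replicate number, a fit of the 6 libraries alone, runs of 50 genes, and leaving out each library. The study's reporting summary calls the 3 VCaP libraries of a subline biological replicates, without saying whether they came from separate cultures.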

Additional observations from a re-analysis of the deposited data

Results flagged for a closer look

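The genes below are listed because their change from VCaP-CT to VCaP-CT-ER differed from that of the second ENZ step, taken by VCaP-CT-BR. This was judged by edgeR's test of the difference itself over all 15 libraries. The same test passed for 49.7% of all genes tested, so passing it does not set a gene apart. The largest rises and falls were chosen by the first change, which favours a difference of the same sign. Each value is the first log2 fold change minus the second. BEX1 passed only narrowly, with an adjusted p of 0.0329.

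Among the genes with the largest rises, the difference was 9.85 for A1CF, 6.40 for ATP2B2, 6.2 for BEX1, 5.35 for GPM6A, 5.01 for SLC38A4 and 3.09 for PLOD2. All but A1CF were called higher in both steps, and for these the difference is one of size. BEX1 reached only 0.103 CPM in VCaP-CT-BR-ER, near the floor of 3 counts, against 21.3 CPM in VCaP-CT-ER. It was not called for CYP4F29P, OR4K12P and DLGAP1 (edgeR adjusted p = 0.0771, 0.633 and 0.0791).

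Among the genes with the largest falls, the difference was -11.60 for OR51E2 and -10.36 for OR51E1, the pair of neighbouring olfactory-type receptors that fell in the step from VCaP-CT and rose in the other (log2 fold changes of 4.32 and 2.89). It was -6.91 for ST8SIA6-AS1, -6.84 for FMOD, -5.90 for TMEM30B, -5.66 for FRRS1L, -5.54 for CST2, -5.35 for TRPM8, -4.06 for SMIM32 and -3.56 for KCNH8.

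For androgen-induced genes and the fusion, the difference was 2.47 for KLK3, 0.71 for KLK2, 0.80 for FKBP5, -0.70 for TMPRSS2 and -0.67 for ERG. NR3C1 rose in the step from VCaP-CT and fell in the other, with a difference of 2.94. HOXB13, MYC and ENO2 differed by -1.03, -0.79 and -0.23, and SYP by 1.22.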

How the results depend on the processing

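None of the single genes recomputed, and no chromosome or run median, changed sign under the alternatives. With at least 10 counts in every library, 768 genes were at least 2-fold higher and 1020 at least 2-fold lower, against 1562 and 1880. Calls of any size fell less, to 5047 higher and 5115 lower. This filter leaves out genes near 0 in any of the 15 libraries, so many of the 2-fold changes lie in such genes. The same filter left 3 androgen-repressed genes, 3 nuclear receptors, 2 fibroblast, endothelial and immune markers, 6 NRF2 and 6 interferon genes lower, and 2 basal, 6 neuroendocrine and 5 drug metabolism genes higher. Leaving out 1 library at a time gave 5531 to 5885 genes higher, 5620 to 5780 lower, 1611 to 1760 at least 2-fold higher, 1807 to 1926 at least 2-fold lower and 9211 to 9817 with a difference between the steps. Which direction held more genes did depend on the setting. More were lower with upper quartile scaling (5612 higher, 6324 lower) and RLE scaling (5966 and 5984), as in the values reported, but more were higher without the filter (6313 and 6019), with the 6 libraries alone (5603 and 5500), without CT-ER replicate 1 (5726 and 5681) and without CT replicate 3 (5885 and 5780). The replicate block gave 5788 higher, 6073 lower, 1561 and 1859 at least 2-fold, and 9659 with a difference between the steps. The deviations of same-numbered libraries correlated at -0.017, 0.350 and 0.526 over 12720 genes. CT-ER 1 correlated best with CT 2 (0.448), while CT-ER 2 and CT-ER 3 each correlated best with the CT library of the same number. These values do not settle whether same-numbered libraries belong together.

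The median of chromosome 14 was 0.33 with upper quartile scaling, 0.38 without the filter, 0.37 with the 6 libraries alone and 0.34 to 0.40 with a library left out. That of chromosome 21 was -0.42 without the filter and -0.47 to -0.42 with a library left out, and that of chromosome 5 was -0.39 to -0.35. In runs of 50 genes and under the filter of 10 counts in each library, respectively, medians were 0.55 and 0.26 on chromosome 2, 0.37 and 0.60 on chromosome 11, 0.65 and 0.63 on chromosome 8, -1.46 and -1.59 from PCDHA13, -0.77 and -0.71 from PCDHGA5, and -0.65 and -0.64 on chromosome 21. These hold other genes by construction; for the rest the cause was not tested. Single calls were gained for KLK2, FOXA1 and MKI67 and lost for SYP, ENO2, GATA3, IFITM2 and CD36 under some alternatives. Depth limits genes near the floor of 3 counts, 0.064 to 0.089 CPM in 1 library.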

Other observations

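Besides the genes described above, the glycolytic transporters SLC2A3 and SLC16A3 fell with log2 fold changes of -3.34 and -3.12, and the matrix genes SPARC and FN1 with -3.06 and -2.03 (edgeR). ME1 and GSTA1, which make NADPH and conjugate glutathione, fell with -3.43 and -3.40. WNT11, a secreted WNT ligand, rose with 3.71, CYP1A1, a target of the aryl hydrocarbon receptor, with 3.11, and PEG3, an imprinted zinc finger gene, with 3.24. Within the mitochondrial genome MT-ND6, the subunit encoded on the light strand, rose most, with 1.18. Its counts were made without regard to strand, so any reads from the opposite strand at this position were included.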
